A study of Mus musculus with 6 samples.

Results

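The interferon regulatory factors (IRFs) are a family of transcription factors that share a DNA-binding domain and recognise related sites in the promoters of interferon and immune genes. The genes described here are Irf1, Irf2, Irf3, Irf4, Irf5, Irf7, Irf8 and Irf9, which were chosen by name. They make up 8 of the 44678 genes with values in these data, and all 8 had enough counts to be tested. RNA-seq libraries were made from spleen cells of WT mice (3 libraries) and KO mice (3 libraries). WT libraries carry the genotype wt and KO libraries the genotype miR-144/451 ko, a deletion of a pair of neighbouring microRNA genes that all cells of the mouse carry. All 6 libraries are labelled as untreated CD8a+ spleen leukocytes, the methods of the study give the background of both genotypes as C57BL/6J, and describe young adult mice by their age in weeks, which the sample records do not repeat. No source used here says whether cells of several mice were pooled, or whether the WT mice were littermates of the KO mice. The methods name a university medical center as the provider of the WT mice and cite earlier work for the KO mice. The study asked whether the microRNA cluster acts on Irf5 in dendritic cells (DCs).

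IRF3 and IRF7 are switched on by kinases downstream of sensors of foreign nucleic acid and turn on the type I interferon genes. The interferons then signal through the JAK-STAT pathway, where IRF9 is part of the STAT complex that binds interferon-stimulated genes, and IRF1 and IRF2 act on overlapping sites as activator and repressor. IRF4, IRF5 and IRF8 have narrower roles in lymphocytes, macrophages and DCs: IRF5 drives inflammatory cytokine genes below MyD88, IRF4 competes with it there and shapes plasma cells and activated T cells, and IRF8 is needed for the CD8a+ subset of conventional DCs.

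Libraries totalled between 8143971 and 8876570 counts. No library of either genotype held a read of Mir144 or Mir451a (0 counts), so these values do not check the genotype. Cd8a, which encodes the antigen used to select the cells, had 694, 1041 and 977 CPM (counts per 1000000 counts of the library, scaled between libraries by the TMM method) in WT libraries 1 to 3 (WT1 to WT3) and 688, 476 and 1030 CPM in KO libraries 1 to 3 (KO1 to KO3). Markers of other cells were present as well. The T cell gene Cd3e reached 218 to 403 CPM, the B cell gene Ms4a1 193 to 424 CPM, the myeloid gene Csf1r 196 to 575 CPM, and the plasmacytoid DC gene Siglech 12.8 ± 0.350 CPM in WT and 12.7 ± 3.20 CPM in KO (SD, n = 3 each). The globin gene Hba-a1 ran from 44.7 to 564 CPM, and the summed markers from 245 to 2700 CPM for erythroid cells, 355 to 847 CPM for plasma cells, 163 to 211 CPM for NK cells and 75.4 to 183 CPM for CD4 T cells. All 10 markers in the list for conventional DCs and all 10 in the list for monocytes and macrophages had counts. The libraries are therefore described here as CD8a+ spleen fractions and not as a single cell type. The libraries also differed in make-up within each genotype. The mean log2 CPM of 35 markers of antigen-presenting cells (B cells, monocytes, macrophages, conventional and plasmacytoid DCs) was 6.07 in WT1, 6.33 in KO1 and 6.35 in KO2, and between 5.64 and 5.65 in WT2, WT3 and KO3. Markers of CD8 T cells went the other way, with summed levels of 3832, 3445 and 2697 CPM in WT1, KO1 and KO2 and of 5023, 4829 and 4809 CPM in WT2, WT3 and KO3. In bulk libraries such as these, fewer cells of a type and less RNA per cell cannot be told apart.

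The sequences of the deleted microRNAs are shown first, because they decide which Irf transcripts hold a match. Their mature sequences from RefSeq (GRCm38.p6), written 5′ to 3′ with the seed (bases 2 to 8) in capitals, come from the plus strand of chromosome 11. The arms of miR-144 lie at chr11:78073010-78073032 (5p) and chr11:78073047-78073066 (3p), and miR-451a lies at chr11:78073186-78073207. The 3 seeds differ from one another.
mmu-miR-144-5p: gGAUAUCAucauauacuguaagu
mmu-miR-144-3p: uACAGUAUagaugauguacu
mmu-miR-451a: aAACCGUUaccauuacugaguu

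All 8 members have an annotated 3′-UTR in GENCODE M21 (GRCm38), and among the genes tested 11544 do. A match to all 7 seed bases was found in 1 member, where Irf1 holds the word AACGGTT complementary to miR-451a. This word occurs in the 3′-UTR of 2.04% of the genes. No member holds the corresponding word for miR-144-3p (ATACTGT, 14.2% of genes) or for miR-144-5p (TGATATC, 6.19% of genes), and Irf5, whose annotated 3′-UTRs run from 130 to 534 bases, has neither these words nor the one for miR-451a. With only 6 bases (positions 2 to 7) Irf4 and Irf8 each hold TACTGT, the word for miR-144-3p, which is present in 40.2% of the genes. The sites are printed as the transcript strand, with the matched bases in capitals. They lie at chr11:53778218-53778241 (Irf1), chr13:30764736-30764759 (Irf4) and chr8:120756382-120756405 (Irf8), all on the plus strand and all within a 3′-UTR. None of the matches is followed by an A. A match of letters is a description and not a measured site.
Irf1, miR-451a match: tcacctggaAACGGTTtggggctg
Irf4, miR-144-3p match: cctttattgtTACTGTtttgttta
Irf8, miR-144-3p match: ccttcccggcTACTGTgtgaaggt

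The promoters of the members were searched for both kinds of site through which interferons act, since several members are themselves interferon-induced. RefSeq gives 11 start windows for the 8 members, each from 250 bases before to 50 bases after a transcript start. The interferon-stimulated response element was searched on both strands, as GAAA repeated after a gap of 2 bases, and occurred in 1 member window, of Irf2, and in 3.44% of 32851 windows. The gamma-activated site, TTCNNNGAA, which reads the same on both strands, occurred in 3 of the 11 member windows, of Irf1, Irf2 and Irf8, and in 8.3% of all windows. The Irf8 window holds a pair of matches. The motif bases are in capitals below. The stretches lie on the plus strand (GRCm38.p6) at chr11:53769914-53769942 for Irf1, chr8:46739495-46739523 and chr8:46739511-46739539 for Irf2, and chr8:120736177-120736205 and chr8:120736195-120736223 for Irf8. The Irf2 stretches overlap each other, as do the Irf8 stretches.
Irf1, gamma-activated site: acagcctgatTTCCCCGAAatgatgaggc
Irf2, interferon-stimulated response element: tggggaagtGAAAATGAAAttgacttttc
Irf2, gamma-activated site: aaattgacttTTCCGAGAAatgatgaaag
Irf8, gamma-activated site, first: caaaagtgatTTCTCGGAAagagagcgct
Irf8, gamma-activated site, second: aagagagcgcTTCAGAGAAggcggatttg

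All 8 members were expressed in every library, with between 626 counts (Irf5 in WT2) and 3389 counts (Irf8 in KO1) per gene. Together they took 1322, 1137 and 1196 CPM in WT1, WT2 and WT3 and 1349, 1510 and 1214 in KO1, KO2 and KO3. To compare genes with one another, counts were divided by the merged exon length in kb and scaled to the library total. On this scale Irf1 was the most abundant member, at 65.6 ± 6.23 CPM per kb (SD over the 6 libraries). Irf8 followed at 43.4 ± 10.1. The lowest Irf1 value, 58.0, lay above the highest Irf8 value, 56.2, so these neighbours did not overlap.

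**Figure D1:**
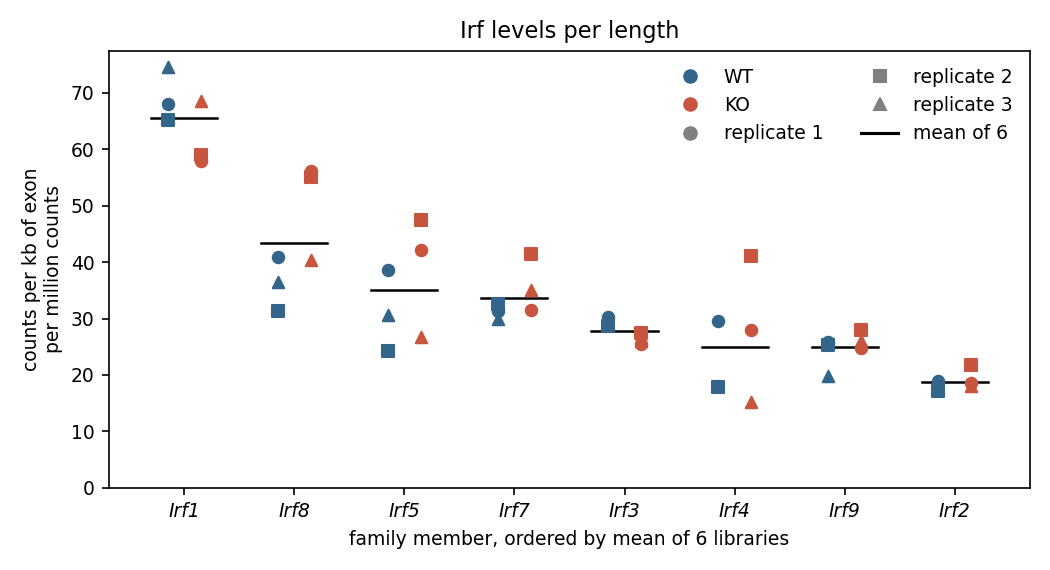
CPM per kb of merged exon (vertical axis) of each Irf gene (horizontal axis), with 1 point per library, blue for WT and red for KO, and a bar at the mean of the 6 libraries. Irf1 lies between 58.0 and 74.5 in every library, above all other members, and Irf2 has the lowest mean, with values from 17.1 to 21.7.

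From Irf8 down, the ranges of all neighbours overlapped. Irf5 had 35.0 ± 9.22 and Irf7 33.7 ± 4.20 CPM per kb, and Irf5 was the higher of the pair in 4 of 6 libraries. Irf7 was above Irf3 (27.8 ± 1.85) in all 6. Irf3 was above Irf4 (25.0 ± 9.80) in 4 of 6 libraries, Irf4 was above Irf9 (24.9 ± 2.74) in 3 of 6, and Irf9 was above Irf2 (18.7 ± 1.58) in 6 of 6. Thus Irf1 was first in all 6 libraries. Irf8 was second in all but WT2, where Irf7 was (32.6 against 31.3), and Irf2 was last in all but KO3, where Irf4 was (15.3 against 18.1). The middle positions were not separated. In the mean of the WT libraries Irf7 preceded Irf5, and in the mean of the KO libraries Irf5 preceded Irf7. When the longest transcript was used as the length, Irf1 and Irf8 kept ranks 1 and 2 and Irf3 moved to rank 3 (47.1 CPM per kb), with Irf4 last (25.7). The order below Irf8 thus depends on the length used. Irf1 held between 18.4% and 29.0% of the family's summed level in a library, Irf8 between 12.9% and 19.7%, and Irf4 between 5.97% and 12.8%. Irf2 had the narrowest share, 6.52% to 7.06%.

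KO and WT were then compared gene by gene in edgeR by its quasi-likelihood test, and p-values were adjusted after Benjamini and Hochberg over all 13024 genes tested. No member had an adjusted p-value under 0.05, a level that 4 genes (0.0307%) reached in all. Without adjustment, Irf3 and Irf8 had p-values under 0.05, that is 2 of 8 members, beside 6.25% of all genes tested. Under the same unadjusted threshold DESeq2 gave 1 member (Irf8), beside 5.17% of all genes, and limma voom gave 2 (Irf3 and Irf8), beside 5.83%, and neither gave any after adjustment. The WT and KO ranges did not overlap for 1 of 8 members, Irf3, beside 11.5% of all genes tested. Of the 8 members, 6 had a higher and 2 (Irf1 and Irf3) a lower fitted level in KO. Leaving out 1 library changed which members had an unadjusted p under 0.05. There were 0 without WT2, where 3.51% of all genes passed, 1 (Irf7) without KO1, where 4.16% did, and 4 (Irf1, Irf4, Irf5 and Irf8) without KO3, where 14.1% did.

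**Figure D2:**
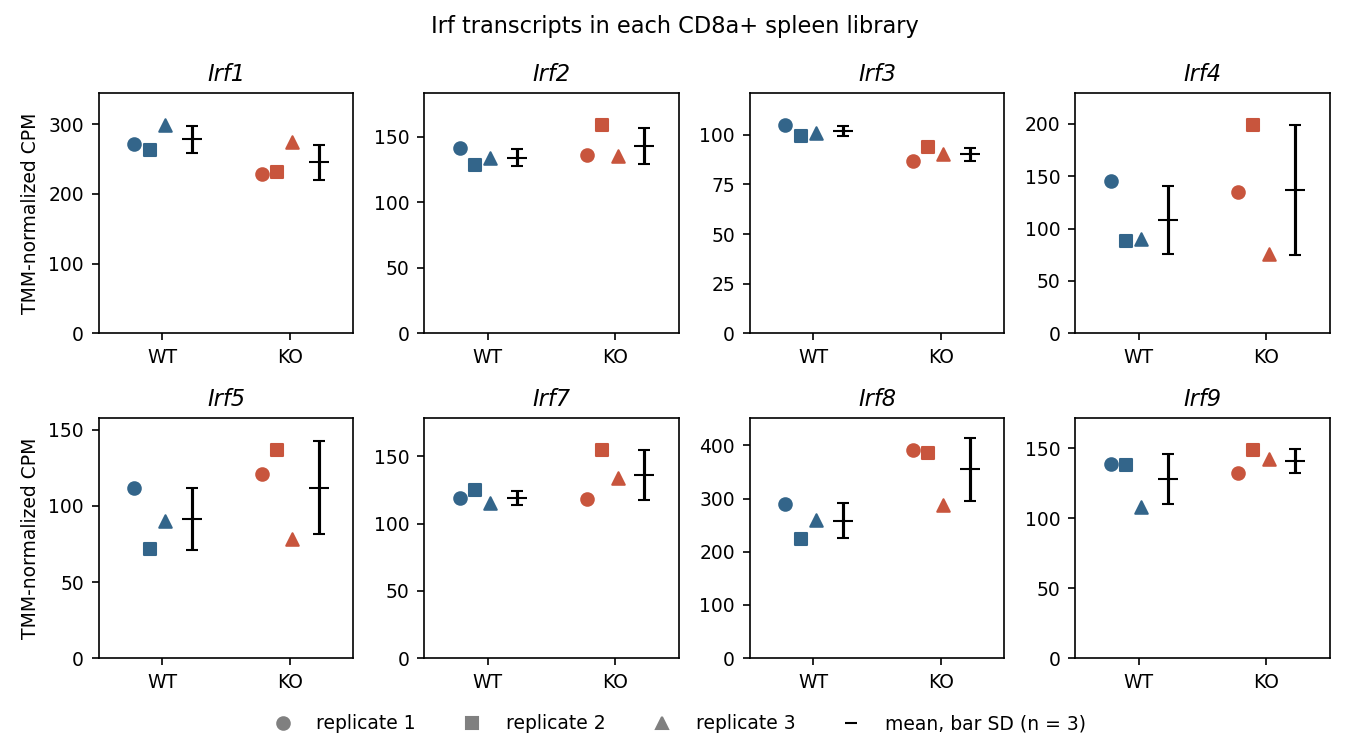
TMM-normalized CPM (vertical axes, each from 0) of each Irf gene in the 3 WT (blue) and 3 KO (red) libraries, with symbols for replicates 1 to 3 and bars for the mean and SD (n = 3). The KO points lie below all WT points for Irf3 alone, and KO1 and KO2 lie above all WT points for Irf8.

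IRF8 binds DNA together with the Ets factor PU.1 or with BATF3 and directs the development of CD8a+ conventional DCs, and it is also made in B cells and monocytes. Irf8 (ENSMUSG00000041515, chr8:120736358-120756694, plus strand) had 289, 224 and 260 CPM in WT1 to WT3 and 392, 385 and 287 CPM in KO1 to KO3. KO1 and KO2 were above every WT library, whereas KO3 lay just below WT1, so the ranges overlapped at their edge. The means were 258 ± 32.8 CPM in WT and 355 ± 59.0 CPM in KO (SD, n = 3 each). The log2 fold change of KO against WT was 0.46 ± 0.15 (SE), a fold of 1.38, with an adjusted p = 0.712 in edgeR. It stayed between 0.36 and 0.57 when any 1 library was left out. The lowest adjusted p over the alternatives was 0.116, without KO3.

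The summed level of the conventional DC markers was 840, 754 and 816 CPM in WT1 to WT3 and 1135, 1169 and 931 CPM in KO1 to KO3, so all KO libraries were above all WT libraries. Of the 10 markers 9 had higher fitted levels in KO, beside 50.6% of all genes tested, and Itgae had a lower one (log2 fold change -0.19). An unadjusted p under 0.05 was reached by 5, all higher in KO, beside 6.25% of all genes, and an adjusted p under 0.05 by none. The ranges were apart for 4, beside 11.5% of all genes. The markers of the CD8a+ DC subset differed among themselves within the KO libraries. Xcr1, a receptor that defines this subset, had 15.7, 17.7 and 15.4 CPM in WT1 to WT3 and 25.4, 16.5 and 33.7 CPM in KO1 to KO3. Clec9a and Cadm1, also of this subset, were added after their values were seen. Clec9a, a receptor for dead cells, had 16.8, 18.3 and 22.5 CPM in WT and 24.2, 17.2 and 38.9 CPM in KO. Xcr1 and Clec9a were highest in KO3, the KO library with the least Irf8, and in KO2 they lay within the WT range. Cadm1, an adhesion molecule, had 25.0, 28.2 and 27.3 CPM in WT and 53.8, 46.0 and 39.5 CPM in KO, lowest of the KO libraries in KO3 as Irf8 was. When the mean level of the 35 markers of antigen-presenting cells was added to the model as a covariate, the log2 fold change of Irf8 was 0.25 ± 0.11 (SE) (edgeR adjusted p = 0.788). With the mean of 10 CD8 T cell markers as the covariate it was 0.23 ± 0.12. The log2 fold change was thus smaller with either covariate and kept its direction. The 35 markers include the conventional DC list, whose sum was higher in every KO library. That list holds Wdfy4, a gene with a pattern near that of Irf8. The smaller value therefore does not separate make-up from genotype. Changes of Irf8 per cell and of the share of Irf8-expressing cells cannot be told apart here.

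IRF5 is the member on which the study centred. The paper reports higher Irf5 mRNA in KO spleen DCs, whereas the libraries here are labelled CD8a+ spleen leukocytes. Irf5 (ENSMUSG00000029771, chr6:29526625-29541871, plus strand) had 112, 71.4 and 90.2 CPM in WT1 to WT3 and 121, 137 and 78.1 CPM in KO1 to KO3. KO1 and KO2 were above all WT libraries and KO3 was below 2 of them, so the ranges overlapped. The mean was 91.3 ± 20.5 CPM in WT and 112 ± 30.4 CPM in KO (SD, n = 3 each), and the log2 fold change was 0.29 ± 0.23 (SE; edgeR adjusted p = 0.851). Leaving out single libraries gave 0.13 to 0.48, the largest without KO3. With the marker covariates the sign changed, to -0.07 ± 0.11 for the antigen-presenting cell markers and -0.14 ± 0.12 for the CD8 T cell markers. The fitted sign of Irf5 thus differed between fits with and without a covariate, and in none was the adjusted p under 0.05. The marker levels used as covariates also differed between libraries of the 2 genotypes. Effects of make-up and of genotype on Irf5 cannot be told apart in these fits. Irf5 shares 411 exon bases (14.1% of its exon length) with Tnpo3 on the opposite strand, and whether the counting used strand is not given in the sources used here.

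IRF4 is induced by antigen receptor signals and is highest in plasma cells and activated lymphocytes. Irf4 (ENSMUSG00000021356, chr13:30749226-30766976, plus strand) varied most of the 8 members. It had 145, 88.5 and 89.6 CPM in WT1 to WT3 and 135, 199 and 75.5 CPM in KO1 to KO3. The highest and the lowest value were both KO libraries, so the WT range lay inside the KO range. The span over the 6 libraries was 1.40 on the log2 scale, and the within-genotype SD of 0.58 log2 units was larger than that of 88.9% of the genes tested. The means of 108 ± 32.5 CPM in WT and 137 ± 61.9 CPM in KO gave a log2 fold change of 0.34 ± 0.33 (SE; edgeR adjusted p = 0.871). Without KO2 it was -0.03 and without WT1 it was 0.61. With the antigen-presenting cell marker covariate it was -0.26 ± 0.14, and with the CD8 T cell marker covariate -0.40 ± 0.09 (edgeR adjusted p = 0.291). The direction of Irf4 thus turned without KO2 and with either covariate.

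**Figure D3:**
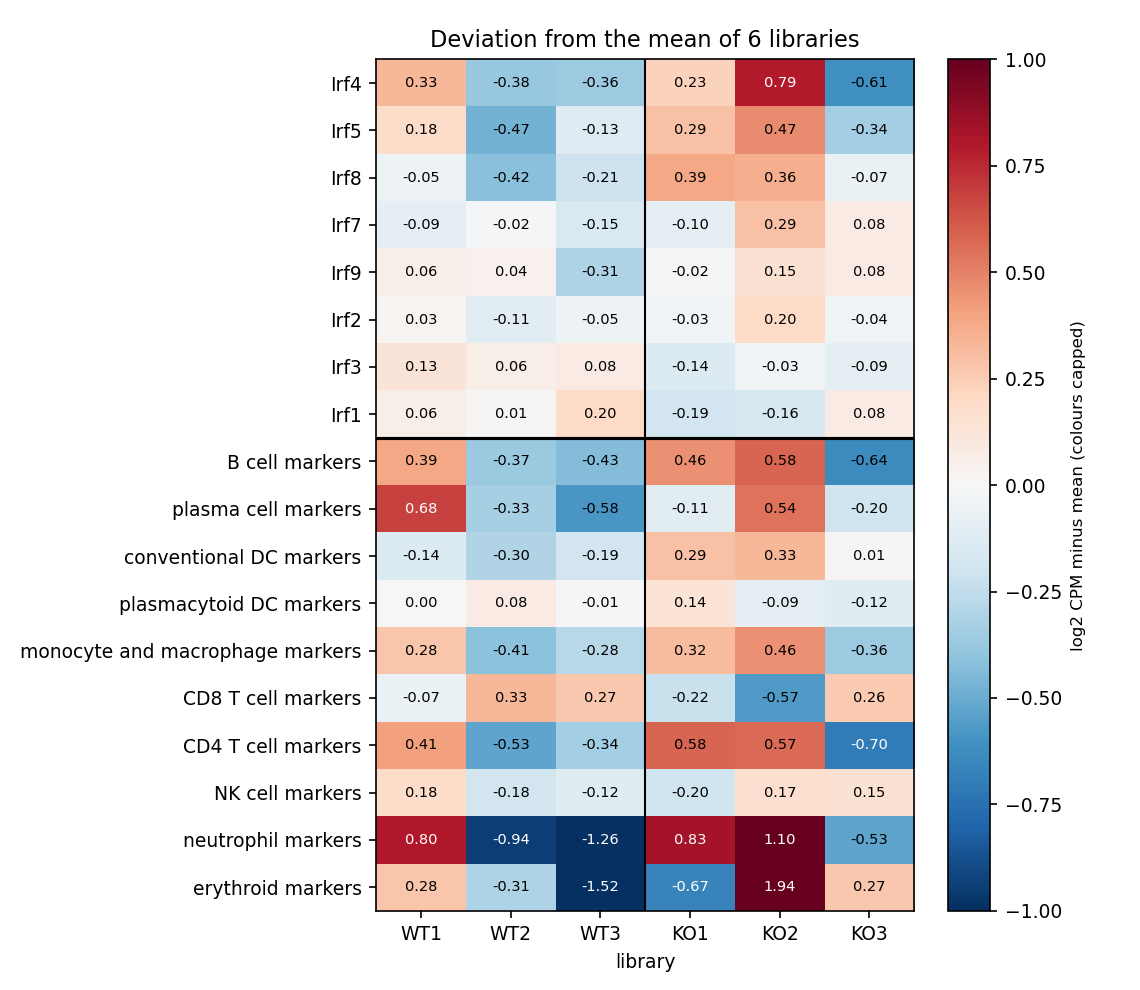
Deviation of each Irf gene (above the line) and of the summed CPM of each marker list (below the line) from its mean over the 6 libraries, in log2 units, with colours that end at -1 and 1 and the value printed in each cell. Irf4 and Irf5 share the signs of the B cell, monocyte and macrophage, CD4 T cell and neutrophil markers in every library, positive in WT1, KO1 and KO2.

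Irf4, Irf5 and Irf8 were the members whose log2 CPM spanned at least 0.5 over the libraries. The summed B cell markers were at 3003, 3155 and 3419 CPM in WT1, KO1 and KO2 and at 1778, 1705 and 1469 CPM in WT2, WT3 and KO3. Irf4 and Irf5 were above their own means in WT1, KO1 and KO2 and below them in the other libraries. Irf8 was above its mean only in KO1 and KO2. The monocyte and macrophage, CD4 T cell and neutrophil markers had the same signs as Irf4 and Irf5 in every library, with summed neutrophil levels of 864, 886 and 1066 CPM against 259, 207 and 345 CPM. The markers of plasma cells, conventional and plasmacytoid DCs, NK cells and erythroid cells did not have these signs in every library. The part of these cell types in the Irf values was not tested beyond the covariate fits.

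The genes nearest in pattern to each of these members were taken by the root mean square difference of log2 CPM over the 6 libraries, after each gene was centred on its mean, among 9809 genes. Irf4 was nearest to Fam43a (0.06) and to Ifitm3 (0.08), which encodes an antiviral membrane protein, where the median gene was 0.52 away. Ifitm3 had 76.8, 43.4 and 51.4 CPM in WT1 to WT3 and 76.6, 101 and 40.7 CPM in KO1 to KO3. Irf5 was nearest to Zfp36, which encodes an mRNA-destabilising protein, and to Sord, which encodes sorbitol dehydrogenase, both at 0.05 against a median of 0.38. Zfp36 had 947, 613 and 748 CPM in WT and 951, 1187 and 633 CPM in KO. Irf8 was nearest to Abca1 (0.05), which encodes a cholesterol exporter, and Wdfy4 (0.06), a gene needed for cross-presentation by DCs, against a median of 0.33. Wdfy4, which is also in the conventional DC marker list, had 368, 315 and 342 CPM in WT and 502, 523 and 410 CPM in KO. These distances are descriptions over 6 libraries that differ in make-up, and carry no test.

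IRF3 is present in resting cells and is activated by phosphorylation, below STING, MAVS and TRIF. Irf3 (ENSMUSG00000003184, chr7:44997648-45002848, plus strand) had 105, 99.6 and 101 CPM in WT1 to WT3 and 86.7, 93.6 and 90.1 CPM in KO1 to KO3. Every KO library was below every WT library. The means of 102 ± 2.59 and 90.1 ± 3.44 CPM gave a log2 fold change of -0.17 ± 0.07 (SE), a fold of 0.886 (edgeR adjusted p = 0.786). Irf3 was the steadiest member, with a within-genotype SD of 0.05 log2 units, lower than that of all but 1.93% of the genes. Its fold change lay between -0.21 and -0.16 in the fit and all 14 alternatives, both covariates included. The change was small and did not pass the adjustment over all genes, and Irf3 shares 88 exon bases (2.56%) with Bcl2l12 on the opposite strand.

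IRF7 is itself interferon-induced and amplifies type I interferon production. Irf7 (ENSMUSG00000025498, chr7:141262706-141266481, minus strand) had 119, 125 and 115 CPM in WT1 to WT3 and 118, 155 and 134 CPM in KO1 to KO3. KO2 and KO3 were above all WT libraries and KO1 was among them. The means were 119 ± 5.12 and 136 ± 18.8 CPM, with a log2 fold change of 0.18 ± 0.11 (SE; edgeR adjusted p = 0.817). The fold change was 0.07 without KO2 and 0.26 without KO1.

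IRF9 is the DNA-binding subunit of the complex it forms with STAT proteins. Irf9 (ENSMUSG00000002325, chr14:55603571-55610030, plus strand) had 139, 138 and 108 CPM in WT1 to WT3 and 132, 149 and 142 CPM in KO1 to KO3. A single library, WT3, was low, and the others lay close together with overlapping ranges. The log2 fold change was 0.13 ± 0.11 (SE; edgeR adjusted p = 0.870) and 0.01 without WT3.

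IRF1 is induced by interferon gamma and activates genes of antigen processing. Irf1 (ENSMUSG00000018899, chr11:53770014-53778374, plus strand), the member with the 7-base match to miR-451a, had 271, 263 and 299 CPM in WT1 to WT3 and 228, 232 and 274 CPM in KO1 to KO3. KO1 and KO2 were below all WT libraries and KO3 was within their range. The means of 278 ± 19.3 and 245 ± 25.5 CPM gave a log2 fold change of -0.18 ± 0.10 (SE; edgeR adjusted p = 0.816). The fold change lay between -0.29 (without KO3) and -0.08 (with the CD8 T cell marker covariate) in the fit and all 14 alternatives. Whether the microRNA acts on this transcript was not tested.

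IRF2 binds the sites of IRF1 and can repress them. Irf2 (ENSMUSG00000031627, chr8:46739732-46847458, plus strand) had 141, 128 and 134 CPM in WT1 to WT3 and 136, 159 and 135 CPM in KO1 to KO3. Only KO2 stood above the WT range, and the log2 fold change was 0.09 ± 0.09 (SE; edgeR adjusted p = 0.875). Without KO2 it was 0.01, and with the CD8 T cell marker covariate -0.02. Both Irf1 and Irf2 had small within-genotype SDs, of 0.12 and 0.11 log2 units, where the median gene had 0.19.

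**Figure D4:**
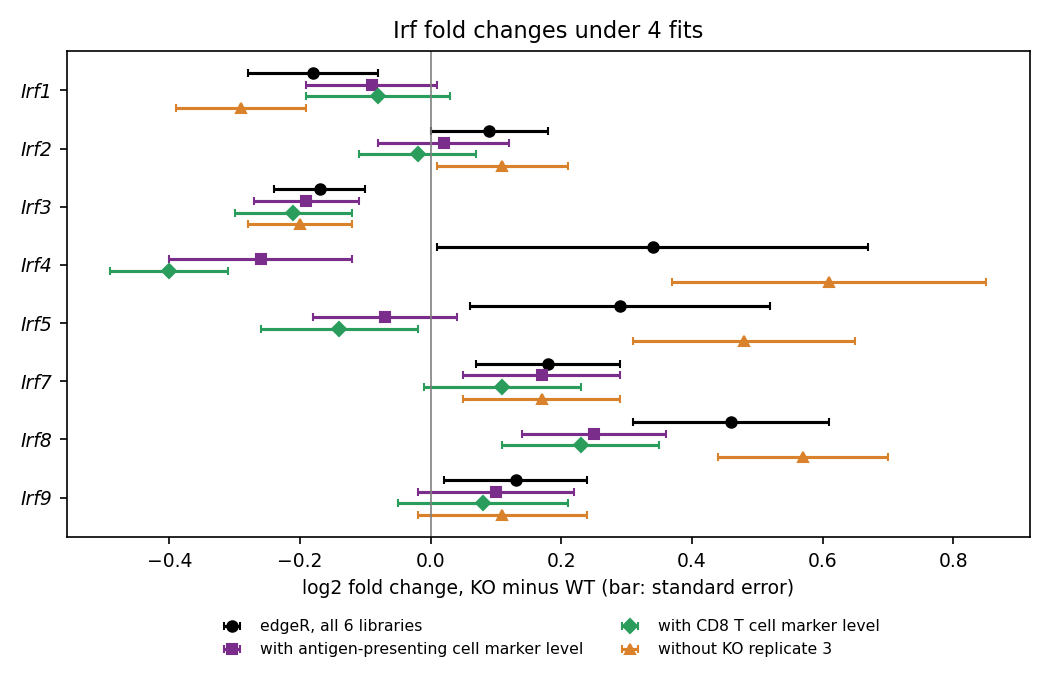
Log2 fold change of KO against WT (horizontal axis, bars SE) of each Irf gene in the edgeR fit of all 6 libraries, in fits with a marker covariate and in the fit without KO replicate 3. Irf4 and Irf5 lie on opposite sides of 0 with and without a covariate, whereas Irf3 stays between -0.21 and -0.17 and Irf8 between 0.23 and 0.57.

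Pairs of members that act on the same sites or partners were compared as ratios within a library, which do not depend on library scaling. Each of 4 pairs was compared by a two-sided exact permutation test, whose smallest possible p with 3 libraries against 3 is 0.1. The log2 ratio of Irf3 to Irf7, both inducers of type I interferon, was -0.18, -0.32 and -0.18 in WT1 to WT3 and -0.44, -0.73 and -0.57 in KO1 to KO3. All KO ratios were lower than all WT ratios, with a difference of -0.35 (exact p = 0.1, 0.400 after adjustment over the 4 pairs). The log2 ratio of Irf1 to Irf2, activator and repressor, averaged 1.05 ± 0.11 in WT and 0.77 ± 0.24 in KO, a difference of -0.27 (exact permutation p = 0.200, adjusted 0.400), which was -0.16 without KO2 and -0.40 without KO3. KO1 (0.75) and KO2 (0.55) were below all WT ratios and KO3 (1.03) was among them.

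The log2 ratio of Irf4 to Irf5, which compete for MyD88, averaged 0.22 ± 0.20 in WT and 0.22 ± 0.30 in KO. The difference was -0.01 (exact permutation p = 1). The log2 ratio of Irf4 to Irf8, which share Ets partners, averaged -1.29 ± 0.27 in WT and -1.47 ± 0.49 in KO, a difference of -0.18 (exact permutation p = 0.600, adjusted 0.800). The groups overlapped for both pairs.

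Genes that act upstream, beside and downstream of the IRFs were read from lists of known biology. The 7 lists held 119 distinct genes that were tested, and none had an adjusted p under 0.05 in edgeR, DESeq2 or limma voom. At an unadjusted p under 0.05 there were 10 in edgeR, 8 in DESeq2 and 10 in limma voom, beside 6.25%, 5.17% and 5.83% of all genes in the same fits. Without KO3 there were 28 of 121 in edgeR, where the share of all genes was 14.1%. Over all genes tested, 50.6% had a higher fitted level in KO and the median log2 fold change was 0.00297. All 29 genes of the activation pathway, from nucleic acid sensors and Toll-like receptors to the kinases TBK1 and IKKε, were tested, and 21 had higher and 8 lower fitted levels in KO, with a median log2 fold change of 0.09, which was 0.03 with the antigen-presenting cell and 0.01 with the CD8 T cell covariate, and 0.05 without KO2. At an unadjusted p under 0.05 there was 1 gene higher and 1 lower. Tlr3, a sensor of double-stranded RNA, had 10.5, 10.7 and 8.69 CPM in WT and 13.1, 11.8 and 16.0 CPM in KO (log2 fold change 0.45 ± 0.19, edgeR adjusted p = 0.786). Tmem173, which encodes the adaptor STING upstream of IRF3, had 90.1, 103 and 106 CPM in WT and 86.7, 81.4 and 88.1 CPM in KO (log2 fold change -0.23 ± 0.09, edgeR adjusted p = 0.786). For both genes the WT and KO ranges did not overlap. Genes named from a list are those with its smallest p-values, for which separated ranges are more likely. Of the 29 genes, 1 had ranges apart with KO higher and 2 with KO lower, beside 11.5% of all genes tested.

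**Figure D5:**
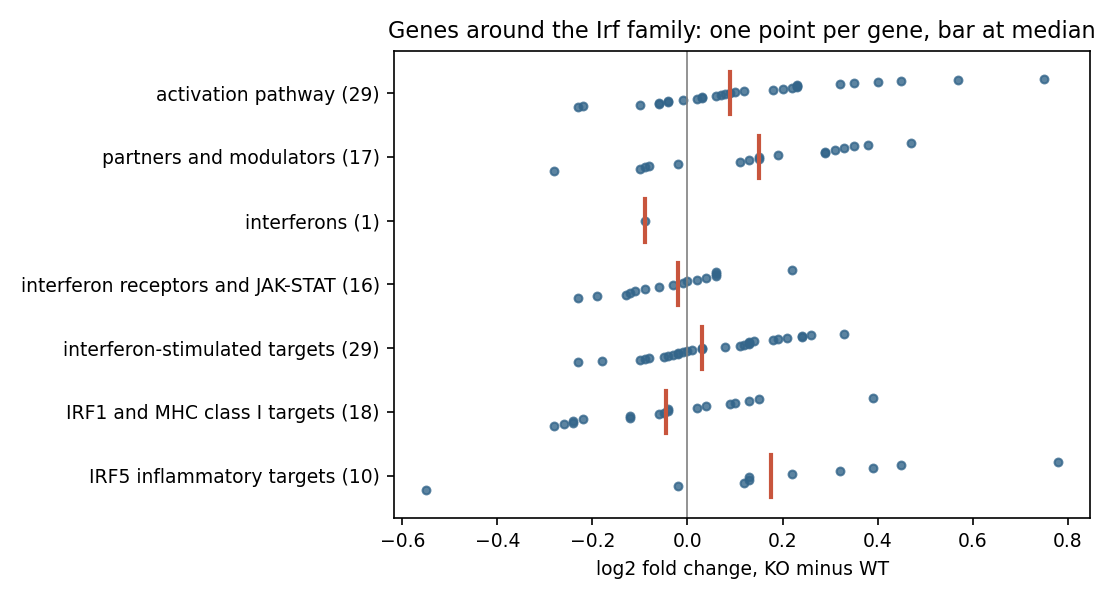
Log2 fold change of KO against WT (horizontal axis) of each tested gene in the 7 lists, with 1 point per gene and a bar at the list's median. The medians lie between -0.09, from 1 interferon gene, and 0.17 for the inflammatory targets of IRF5, and no gene had an adjusted p under 0.05.

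Among the binding partners and modulators, 17 of 18 genes were tested, of which 12 had higher and 5 lower fitted levels in KO (median log2 fold change 0.15). The coactivators of IRF3 and IRF7 had the smallest p-values in this list. Crebbp, which encodes CBP, had 168, 194 and 187 CPM in WT and 217, 245 and 250 CPM in KO, and its log2 fold change was 0.38 ± 0.10 (edgeR adjusted p = 0.556). Ep300, which encodes p300, had 229, 249 and 230 CPM in WT and 266, 329 and 271 CPM in KO, with a log2 fold change of 0.29 ± 0.11 (adjusted p = 0.769, edgeR). All KO libraries were above all WT libraries for both coactivators. In this list 3 of 17 genes had ranges apart, all with KO higher, beside 11.5% of all genes tested. The median of this list was 0.02 with the CD8 T cell marker covariate, 0.10 without KO2 and 0.24 without WT3.

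Of 12 interferon genes, 1 was tested. Ifng, the interferon of T cells and NK cells, had 22.1 ± 4.40 CPM in WT and 20.7 ± 6.44 CPM in KO (log2 fold change -0.09 ± 0.25, edgeR adjusted p = 0.951). The sign turned without WT1 (0.06) and without KO1 (0.13), and the value was -0.25 without KO2. Ifnb1 and all 5 listed Ifna genes had a count of 0 in all 6 libraries, which allows up to 0.338 to 0.368 CPM per library, for counting error only. The receptors and the JAK-STAT genes were all tested, and 6 of 16 had higher fitted levels in KO, with a median log2 fold change of -0.02, or 0.01 with the antigen-presenting cell covariate. Socs3, an inhibitor of JAK signaling, was lower in every KO library, at 129, 122 and 105 CPM against 147, 132 and 139 CPM in WT (log2 fold change -0.23 ± 0.10, edgeR adjusted p = 0.786). It was the only gene of these 16 with ranges apart, beside 11.5% of all genes tested. Stat2, the partner of IRF9, had 89.7 ± 12.5 CPM in WT and 104 ± 17.7 CPM in KO (log2 fold change 0.22 ± 0.14, edgeR adjusted p = 0.827).

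The interferon-stimulated genes, targets of IRF3, IRF7 and IRF9, showed no gene with an unadjusted p under 0.05 among 29 tested. Of these, 18 had higher and 11 lower fitted levels in KO, and the median log2 fold change was 0.03, or -0.03 with either covariate, 0.13 without KO1 and -0.05 without KO2. Trim30a, a regulator of Toll-like receptor signaling, had 220, 204 and 200 CPM in WT and 204, 277 and 268 CPM in KO (log2 fold change 0.26 ± 0.13, edgeR adjusted p = 0.807). Oas2, an antiviral enzyme, had 74.7 ± 6.22 CPM in WT and 88.4 ± 25.8 CPM in KO, with the ranges overlapping.

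Of the 18 genes in the list of IRF1 and MHC class I targets, 7 had higher and 11 lower fitted levels in KO. The median log2 fold change was -0.05, or -0.19 without KO3. At an unadjusted p under 0.05, 3 had a lower and 0 a higher level, beside 6.25% of all genes tested, where 275 of 13024 were lower at this threshold. Psmb10, Psmb8 and Psmb9 encode the catalytic subunits of the immunoproteasome, which shapes peptides for MHC class I. Psmb10 had 128, 133 and 136 CPM in WT and 111, 103 and 113 CPM in KO, with a log2 fold change of -0.28 ± 0.08 (edgeR adjusted p = 0.625). Psmb8 had 283, 297 and 317 CPM in WT and 252, 232 and 266 CPM in KO, with a log2 fold change of -0.26 ± 0.09 (adjusted p = 0.751, edgeR). Every KO library was below every WT library for both of these. In the list 3 of 18 genes had ranges apart, all with KO lower, beside 11.5% of all genes tested. Psmb9, added after its values were seen, had 161, 158 and 167 CPM in WT and 158, 135 and 176 CPM in KO, with overlapping ranges (log2 fold change -0.05). The 10 CD8 T cell markers had a median log2 fold change of -0.31, with 1 at an unadjusted p under 0.05 and none after adjustment, and their summed levels overlapped between WT (3832 to 5023 CPM) and KO (2697 to 4809 CPM). With the CD8 T cell covariate the median of the list was -0.02, and with the antigen-presenting cell covariate -0.04.

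Of the 12 inflammatory targets of IRF5, 10 were tested, with 8 higher and 2 lower fitted levels in KO and a median log2 fold change of 0.17. This median was 0.02 with the antigen-presenting cell covariate, -0.05 with the CD8 T cell covariate and 0.40 without WT1. Cd86, a costimulatory receptor of antigen-presenting cells, had 40.8, 37.9 and 35.9 CPM in WT and 49.8, 49.7 and 44.1 CPM in KO. All KO libraries were above all WT libraries, with a log2 fold change of 0.32 ± 0.10 (edgeR adjusted p = 0.694). Ccl5, a chemokine made in quantity by memory CD8 T cells and NK cells, went the other way, at 576, 385 and 342 CPM in WT and 227, 329 and 333 CPM in KO (log2 fold change -0.55 ± 0.22, adjusted p = 0.786, edgeR). For Ccl5 every KO library was below every WT library. At an unadjusted p under 0.05 this list had 1 gene higher and 1 lower, beside 6.25% of all genes tested. Ranges were apart for 2 genes with KO higher and 1 with KO lower, of 10 tested, beside 11.5% of all genes. The monocyte and macrophage markers, whose cells use several of these targets, had 9 of 10 higher fitted levels in KO and a median log2 fold change of 0.58. None had an adjusted p under 0.05 or ranges apart. Their summed levels overlapped between WT (1109 to 1789 CPM) and KO (1148 to 2019 CPM).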

How the data were processed

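RNA-seq libraries of CD8a+ spleen leukocytes, 3 WT and 3 KO, were prepared with the SMARTER mRNA kit. For each library the authors deposited expected counts by Ensembl identifier, some of them fractions, with no sign of normalization. This unit was inferred from the numbers themselves. The submitters' processing notes name the builds GRCm38 and mm10. The aligner, counter, annotation and use of strand are not given in the sources used here. Of 44678 gene identifiers, 44121 (98.75%) were in GENCODE M21 (GRCm38), which gave names, lengths and 3′-UTRs, and RefSeq (GRCm38.p6) gave microRNAs and promoters.

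After rounding to whole numbers, the counts were fitted in R 4.3.3 with edgeR 4.0.16, using filterByExpr (minimum count 10, minimum total 15), TMM factors (0.989 to 1.01), the quasi-likelihood test and Benjamini-Hochberg adjustment over 13024 genes at 0.05. The script was tested on simulated data. The alternatives were DESeq2 1.42.0, voom of limma 3.58.1, upper-quartile normalization, other filters, a replicate block, marker covariates and each library left out. Libraries of 1 genotype differed by more than sampling noise (chi-square per degree of freedom 6.55 to 23.5). At these depths 3 counts correspond to 0.338 to 0.368 CPM.

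No record says how the replicates of a genotype relate, so p-values measure only the spread between these samples. Replicate numbers are shared by WT and KO names, but same-numbered libraries did not deviate together (correlations of -0.0166, -0.162 and 0.0738), so they were not treated as pairs. The members and the gene lists were chosen with earlier results of these data known. The genes named by rule are all members, the 2 genes of each pathway list with the smallest unadjusted p, the 2 genes nearest in pattern to each member spanning at least 0.5 log2 units (among genes averaging 3 log2 CPM or more), and fixed cell markers. Outside this rule, Clec9a, Cadm1, Itgae, Psmb9, Batf2 and Il6 were added after their values were seen. The deleted microRNA genes, genes overlapping a member and interferon genes without counts are also named. Mb21d1 was matched under its newer symbol Cgas, and the erythroid marker Ahsp was not used here. Some marker and pathway genes are not reported here.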

Additional observations from a re-analysis of the deposited data

How the results depend on the processing

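No member passed the adjusted threshold in the fit or in any of its 14 alternatives. Irf1, Irf3, Irf7, Irf8 and Irf9 kept their direction in all of them. Irf2 changed sign with the CD8 T cell marker covariate (-0.02). Irf4 changed sign with the antigen-presenting cell (-0.26) and CD8 T cell (-0.40) covariates, and ranged from -0.03 (without KO replicate 2) to 0.61 when 1 library was left out. Irf5 changed sign with the same covariates (-0.07 and -0.14). Over all genes, the calls at an adjusted p under 0.05, 4 in the comparison, came to 56 with DESeq2, 12 with no filter, 11 and 8 with the antigen-presenting and CD8 T cell covariates, and 2 to 94 with 1 library left out, the highest without KO replicate 3. With the replicate block it was 9, with no member among them, and Irf8 alone had an unadjusted p under 0.05 under the block, beside 5.26% of all genes. The members whose ranges do not overlap numbered 1 to 4 with 1 library left out (4 without KO replicate 3, beside 31.4% of all genes). Leaving out 1 library moved the difference of the Irf1 to Irf2 ratio between -0.40 and -0.16, that of Irf4 to Irf5 between -0.17 and 0.13 and that of Irf4 to Irf8 between -0.44 and 0.05. The order by level had 3 of 8 members at the same rank with the longest transcript and 4 to 8 with 1 library left out. With the antigen-presenting and CD8 T cell covariates the median log2 fold change was 0.02 and -0.05 for the IRF5 targets (0.17 in the comparison), 0.03 and 0.01 for the activation pathway (0.09), and 0.07 and 0.02 for the partners and modulators (0.15), and with 1 library left out that of the receptors and JAK-STAT genes lay between -0.10 and -0.01 and that of the IRF1 and MHC class I targets between -0.19 and -0.01, both lowest without KO replicate 3, and that of the interferon-stimulated targets between -0.05 and 0.13. The cause was not tested. The covariates were made from the same libraries they adjust and take up a degree of freedom. With 3 libraries a genotype, the differences of Irf3 (-0.17) and Irf1 (-0.18) did not pass adjustment. Nor did the larger ones of Irf8 (0.46), Irf4 (0.34) and Irf5 (0.29).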

Other observations

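Some genes around the family had too few counts for the comparison, and were picked here after their values were seen. Batf2, which encodes a basic leucine zipper protein that binds DNA with IRFs, had counts of 3, 2 and 4 in WT1 to WT3 and of 10 in each of KO1 to KO3. All KO libraries were above all WT libraries, and the fit with no filter on low counts gave a log2 fold change of 1.67 ± 0.65 (SE; edgeR adjusted p = 0.814). Il6, an inflammatory target of IRF5, had counts of 6, 1 and 0 in WT1 to WT3 and of 16, 10 and 1 in KO1 to KO3, with its lowest values in WT2, WT3 and KO3.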
